A study of Mus musculus with 16 samples.

Results

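Cells of the mouse mammary carcinoma line 4TO7 that stably overexpressed E-cadherin (CDH1) were compared with 4TO7 cells infected with the empty pMSCV puro vector that served as their control. The members were found by sample title: 2 arrays of CDH1 cells (repeats A and B) and 2 arrays of the vector cells (repeats A and B), 4 of the 16 arrays of the series. A second pMSCV puro vector line, the control for cells carrying the miRNA group called Cluster 1 (2 arrays), was used to ask which differences also held against another vector line. All 3 groups were sublines of 4TO7 kept in DMEM with 10% serum and antibiotics, so culture medium and parental line were shared. The construct that carried E-cadherin, its species and promoter, and whether a group was 1 clone or a pool are not stated in the labels. The series design calls the repeats biological replicates, but whether they were separate infections is not stated, so each p-value reflects repeat-to-repeat spread within these lines, which may be technical. Each array carried RNA of the cells in Cy5 against a common reference RNA of 11 mouse cell lines in Cy3.

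E-cadherin is the main adhesion receptor of epithelial adherens junctions. Its outer part binds E-cadherin on the neighbouring cell, and its tail binds beta-catenin and p120-catenin, which link it through alpha-catenin to actin. Beta-catenin held at the membrane is not free to act with TCF/LEF factors in the nucleus, and cell contact through E-cadherin also feeds into Hippo signalling, which restrains YAP and TAZ. Carcinoma cells that turn mesenchymal often lose E-cadherin through repressors such as Snai1, Snai2, Zeb1 and Zeb2.

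Values below are log2 ratios of the cells over the reference RNA, after background correction and loess normalisation of each array, and log2 fold changes are differences between group means of these ratios. A log2 fold change of 1 is a 2-fold rise. A gene was called when its adjusted p in limma, a linear model with a shared estimate of the spread, was under 0.05 over all genes tested. The standard error (SE) and the adjusted p (Benjamini-Hochberg) come from that fit over the 16 arrays, in which each of the 8 groups had 2 arrays. A ratio to the reference compares the same gene between arrays and says nothing of 1 gene against another.

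All 4 arrays lay on slide 3, with the vector cells at positions 1 and 2 and the CDH1 cells at positions 3 and 4, so position on the slide and group cannot be told apart. The second vector line lay on slide 4 at positions 3 and 4, the positions of the CDH1 cells on slide 3. Cluster 1 cells, at positions 1 and 2 of slide 4, held those of the own vector. Slide and group cannot be told apart for the second vector line either, and the part of position in any result was not tested. In the own vector cells 19719 (repeat A) and 12330 (repeat B) probes were well above background, against 22886 and 26054 in CDH1 and 22887 and 23697 in the second vector line. The repeats correlated across genes at 0.938 in the own vector and 0.966 in CDH1. List counts of 5 or more against the own vector are below also given without an array whose omission changed them by more than 1.5 times. Of 7 mesenchymal markers (Vim, Fn1, Zeb1, Zeb2, Twist1, Pdgfrb, Col1a1), 7 were above background on both CDH1 arrays, as were 6 of 8 simple epithelial markers, 5 of 6 basal and 2 of 6 luminal markers. The luminal genes Elf5 and Csn2 were above background on 0 of the 16 arrays. Of the leukocyte markers 6 of 6 were above background on both CDH1 arrays, 2 of 6 in the own vector and 6 of 6 in the second. Their summed share of the signal ran from 0.511 to 0.528 per 10000 in CDH1, 0.595 to 0.675 in the own vector and 0.622 to 0.623 in the second. Endothelial markers were above background in 2 of 5 cases in CDH1, 0 of 5 in the own vector and 5 of 5 in the second, with shares of 0.272 to 0.292, 0.238 to 0.293 and 0.377 to 0.426, and 2 of the 5 were called higher in CDH1 against the second vector (median 0.53). For adipocyte markers the counts were 1, 0 and 2 of 4, with shares of 0.195 to 0.208, 0.226 to 0.228 and 0.206 to 0.217, and Adipoq and Lep were above background in neither CDH1 nor the own vector. The part of these markers in any result was not tested, and in bulk RNA fewer cells of a type and less RNA per cell cannot be told apart.

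Cdh1 itself, measured to check the labels, was low and higher in the CDH1 cells than in either vector line. The probe A_51_P137336 (chromosome 8, 105268557 to 105268616, build mm7) is spotted 10 times on each array. Its signal over local background was 66.2 and 92.7 in the CDH1 cells, 9.41 and 43.8 in the own vector, and 32.9 and 38.5 in the second vector line. Both CDH1 arrays thus lay above the 4 vector arrays, but 0 of the usable spots were well above background on either own vector array, against 9 of 9 on each CDH1 array and each array of the second vector line. As log2 ratios Cdh1 stood at 0.57 and 0.77 in CDH1, 0.03 and 0.09 in the own vector and -0.01 and 0.09 in the second. The difference was 0.61 (SE 0.126, adjusted p = 0.00556), with a control that was not well above background, and its size moved with the processing, from 0.51 without repeat B of CDH1 to 2.44 with the scanner software's processed signals (adjusted p = 0.000246). Against the second vector line the difference was 0.63 (adjusted p = 0.0223), a call that ended whichever of the 4 arrays was omitted. Without repeat B of the CDH1 cells the call against the own vector ended (0.51, adjusted p = 0.0688). Cells carrying Cluster 1, on the other slide, gave 206 and 236 on the same probe, and the CDH1 effect was smaller than the Cluster 1 effect (difference -0.60, adjusted p = 0.0369). The labels do not say whether the probe lies inside the introduced sequence, so the level may hold the cells' own transcript, the introduced one, or both.

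**Figure D1:**
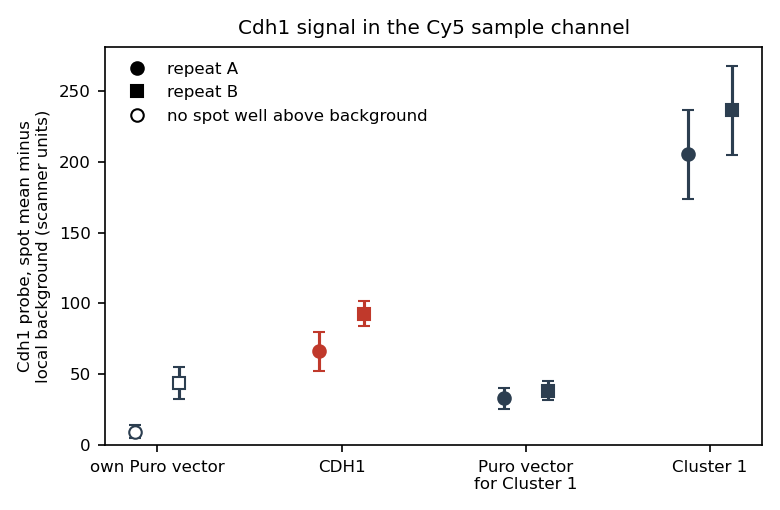
Signal of the Cdh1 probe over local background in scanner units (y axis) for each Cy5 array of 4 groups (x axis); points are means over unmarked spots and bars are the SD between spots. The CDH1 arrays at 66.2 and 92.7 lie above the vector arrays and below the Cluster 1 arrays at 206 and 236; open symbols mark arrays with no spot well above background.

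The first comparison asked what E-cadherin overexpression changed relative to its own vector. Of 18876 genes tested, 2748 were called (14.6%), 1461 higher (7.74%) and 1287 lower (6.82%) in the CDH1 cells. Large changes were mostly falls in this comparison, since 24 genes rose and 99 fell at least 2-fold. Against the second vector line the split was nearly even, at 12 rises and 13 falls. Between the vector lines, 67 called genes were at least 2-fold higher and 10 lower in the own vector than in the second. The 2 CDH1 arrays lay beyond both own vector arrays for 2652 of the 2748 genes called against it. Such separation held for 54.4% of the 18106 genes with values on all 4 arrays, so it adds little by itself. Without repeat B of the CDH1 cells 1538 genes were called, and 1744 without repeat B of the own vector. Under median centring in place of loess the median of all genes moved from 0.01 to 0.11 and 82.8% of the 3835 calls were rises, against 53.2% of calls as reported.

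Against the Puro vector for Cluster 1, 473 of 18872 genes were called (2.51%), 245 higher (1.3%) and 228 lower (1.21%), and 2751 had an unadjusted p under 0.05. Genes called in the same direction against both vector lines numbered 294 (1.56%), 144 higher (0.763%) and 150 lower (0.795%), and 14 were called in opposite directions. These 294 genes were 10.7% of those called against the own vector and 62.2% of those called against the second. Both comparisons share the CDH1 arrays. Of the 123 genes that changed at least 2-fold against the own vector, 45 were called the same way against both, 14 higher and 31 lower, and 10 changed at least 2-fold against both. The 2 vector lines, which carry the same pMSCV puro vector, differed from each other in 1906 genes (10.1%). Leaving out single arrays lowered the 294 to 133 and 79 (CDH1 repeats A and B) and to 88 and 101 (second vector repeats A and B).

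The largest rise was that of Perp, a desmosome-associated membrane protein and p53 target. Its ratios were -0.02 and -0.06 in CDH1, -2.29 and -2.20 in the own vector, where 1 of 2 arrays was above background, and -0.99 and -1.04 in the second, so the 3 groups did not overlap and the second vector lay between. The rise was 2.20 (SE 0.0695, adjusted p = 5.88e-09) and 0.97 (adjusted p = 3.65e-05) against the second vector, and with marked spots kept 1.28 and 0.74, where neither passed (adjusted p = 0.0864 and 0.567). Lsr, the lipolysis-stimulated receptor that marks tricellular junctions, gave 1.50 and 1.48 in CDH1, -0.62 and -0.59 in the own vector and 0.69 and 0.80 in the second. It rose by 2.10 (SE 0.121, adjusted p = 4.17e-07) and by 0.74 (adjusted p = 0.00796). Shtn1, which encodes shootin-1, a clutch protein that couples actin flow to adhesion in neurons, gave -0.11 and -0.00 in CDH1, -2.09 and -1.89 in the own vector and -1.09 and -1.14 in the second. It rose by 1.93 (SE 0.0774, adjusted p = 1.33e-08) and by 1.06 (adjusted p = 3.65e-05) on 1 probe. Another Shtn1 probe gave -0.13 and -0.13, and the mean over both did not pass against the second vector (0.47, adjusted p = 0.0656). These 3 genes shared the same order of groups, own vector lowest and CDH1 highest.

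Id2, an inhibitor of basic helix-loop-helix factors, rose by 1.55 (adjusted p = 6.09e-07) and by 0.67 against the second vector (adjusted p = 0.00266), with ratios of 0.51 and 0.52 against -0.89 and -1.18 in the own vector. Prnd, the prion-like gene that encodes doppel, was below background on both own vector arrays and rose by 1.53 (adjusted p = 0.000279). Against the second vector, where 1 array had a value, it rose by 1.11 (adjusted p = 0.0327). The uncharacterised gene 1700012B09Rik rose alike against both lines, by 1.45 and 1.37, from 1.17 and 1.02 in the own vector and 1.07 and 1.27 in the second to 2.59 and 2.49. A second probe of 1700012B09Rik gave 1.01 and 0.87, but with processed signals the gene was at 0.44 (adjusted p = 0.696) and 0.06 (adjusted p = 0.984). Kctd12b, of the potassium channel tetramerisation domain family, rose by 1.43 and 1.17. Ggct, a gamma-glutamylcyclotransferase, rose by 1.19 and 0.54 on 1 probe, and its other probe, above background on all of these arrays, gave -0.02 and -0.13.

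The other 4 of the 12 largest rises were called against the own vector alone. Prl2c5, a proliferin, rose by 1.16 and stood 0.23 above the second vector (adjusted p = 0.243). Its ratios were 1.67 and 1.79 in CDH1 and 1.48 and 1.52 in the second vector, close to each other, against 0.67 and 0.48 in the own vector. Its close relative Prl2c3 gave 1.07 and 0.24, and transcripts of near-identical proliferins may share a probe. Fzd6, a Wnt receptor, gave 1.14 and 0.30 (adjusted p = 0.0832 against the second vector). Plscr2, a phospholipid scramblase, gave 1.14 and 0.34, and Il11, an interleukin of the IL-6 family, 1.11 and 0.13 (adjusted p = 0.524). All 4 were higher in the second vector than in the own vector by test, with the own vector minus the second at -0.98 for Il11 (adjusted p = 8.41e-06) and -0.93 for Prl2c5 (adjusted p = 3e-05). Ranked by the smaller of the 2 changes, the 10 largest rises against both lines also held Phlda2, an imprinted pleckstrin homology gene (1.21 and 0.94), the monoamine oxidase gene Maoa (0.84 and 0.79), Lypd3, a surface protein of stratified epithelia (1.01 and 0.75), and Procr, the protein C receptor (0.71 and 0.81). Phlda2 and Procr had a value on 1 own vector array. In the comparison with the second vector, omitting CDH1 repeat B ended the calls of Lsr, Prnd, Phlda2 and Lypd3, omitting CDH1 repeat A those of Lsr and Prnd, and omitting repeat A of the second vector those of Lsr, Prnd, Phlda2 and Procr.

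**Figure D2:**
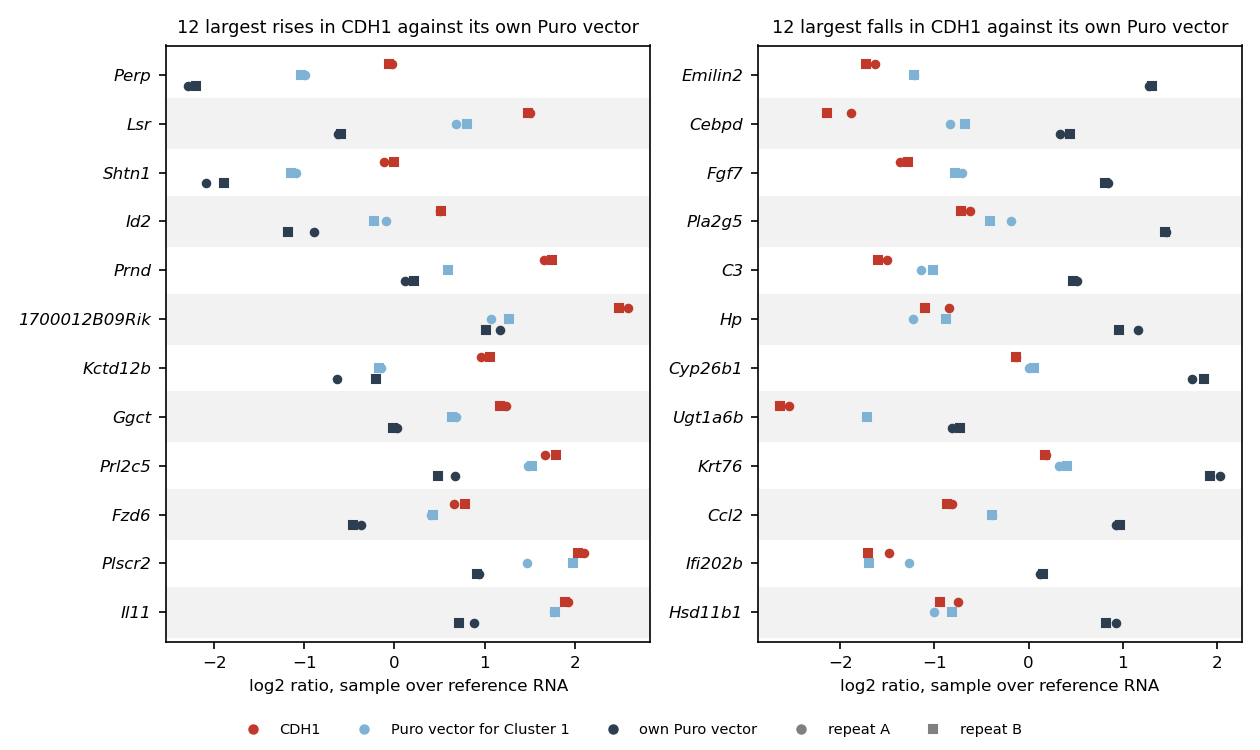
Log2 ratio of sample over reference RNA (x axis) on each CDH1 array, own Puro vector array and array of the Puro vector for Cluster 1, for the 12 largest rises (left) and 12 largest falls (right) against the own vector; circles are repeats A and squares repeats B. Perp runs from -2.29 in the own vector to -0.02 in CDH1, and the second vector lies between, whereas for Hp and Hsd11b1 the second vector overlaps CDH1.

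The largest fall was that of Emilin2, an elastic fibre glycoprotein, from 1.28 and 1.32 in the own vector to -1.64 and -1.73 in CDH1. It fell by 2.98 (SE 0.105, adjusted p = 9.56e-09). The second vector stood at -1.22 on both arrays, and the fall against it was 0.47 on the log2 scale (log2 fold change -0.47, adjusted p = 0.0358), a call lost whichever of the 4 arrays was omitted. Cebpd, a transcription factor of the acute phase response, gave -1.89 and -2.14 in CDH1, 0.34 and 0.45 in the own vector and -0.84 and -0.68 in the second. It fell by 2.40 (SE 0.102, adjusted p = 2.09e-08) and gave -1.25 against the second vector (adjusted p = 6.87e-05), 1 of the 10 genes with at least a 2-fold change against both.

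Fgf7, a keratinocyte growth factor made by stromal cells, fell by 2.15 (adjusted p = 9.56e-09) and by 0.58 against the second vector (adjusted p = 0.00102). The gene Pla2g5, a secreted phospholipase, fell by 2.12 and by 0.37, and the complement gene C3 by 2.05 and by 0.48. The chemokine Ccl2 fell by 1.78, from 0.93 and 0.97 to -0.81 and -0.86, and by 0.45 against the second vector (adjusted p = 0.00537). Ugt1a6b, a glucuronosyltransferase whose exons are shared with its gene family, fell by 1.82 and by 0.88, with 1 usable array in the second vector. All of these genes were called the same way against both lines. Omitting CDH1 repeat B ended the calls of Pla2g5, C3 and Ccl2 against the second vector. Omitting CDH1 repeat A or repeat A of the second vector ended that of Pla2g5, and omitting repeat B of the second vector that of C3.

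In the other 5 of the 12 largest falls the second vector stood near CDH1. Hp, the acute phase protein haptoglobin, gave -0.85 and -1.10 in CDH1, 1.17 and 0.96 in the own vector and -1.23 and -0.87 in the second. It fell by 2.04 against the own vector (adjusted p = 7.82e-05) and differed by 0.07 from the second (adjusted p = 0.947), where the groups overlapped. Cyp26b1, which degrades retinoic acid, fell by 1.93 (-0.16 against the second, adjusted p = 0.385). Krt76, a keratin of the palate, fell by 1.80 (-0.19, adjusted p = 0.453). The interferon-inducible gene Ifi202b fell by 1.73 (-0.11, adjusted p = 0.833), and Hsd11b1, which makes active glucocorticoid, by 1.72 (0.06, adjusted p = 0.959). All 5 differed between the vector lines by test, Hp by 2.11 (adjusted p = 9.17e-05). In the sample channel alone, without the reference, Hp was called lower against the second vector too (-2.09, adjusted p = 6.4e-05). So was Hsd11b1 (-1.10, adjusted p = 0.00263).

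Ranked by the smaller change, the largest falls against both lines were those of Cebpd, Ddit4, Xlr4b, Ddah2, Hmgcs1, Cxcl5, Scd2, Ugt1a6b, Tuba1a and Syt13. Ddit4, a stress-induced inhibitor of mTORC1, gave -2.81 and -2.79 in CDH1, -1.05 and -1.72 in the own vector and -1.56 and -1.61 in the second, and fell by 1.41 (adjusted p = 0.000296) and 1.21 (adjusted p = 0.00626). Ddah2, which breaks down methylated arginine, fell by 1.43 and 1.06. Scd2, a fatty acid desaturase, fell by 1.60 and 0.98. The neutrophil chemokine Cxcl5 fell by 1.62 and 1.00, and the tubulin gene Tuba1a by 1.08 and 0.83. Xlr4b (1.16 and 1.27 lower, log2 fold changes -1.16 and -1.27) is 1 of several near-identical X-linked copies. Omitting CDH1 repeat B or repeat A of the second vector ended the calls of Ddit4 and Xlr4b against the second vector. The call of Xlr4b there also ended without CDH1 repeat A, and against the own vector without its repeat A. With processed signals Xlr4b stood at -0.03 against the own vector (adjusted p = 0.971), and with a background offset of 10 at -0.87 (adjusted p = 0.0563). In the sample channel alone Xlr4b was instead called higher against the own vector (0.99, adjusted p = 0.000173) and the second (0.43, adjusted p = 0.0306). Syt13 lost its call against the second vector in 11 of the alternatives tried, the largest loss among these genes. In the sample channel alone Syt13 was called higher there (0.58, adjusted p = 0.00904).

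Several of these changes rest on 1 probe or on how marked spots were treated. With marked spots kept, the calls of Kctd12b, Prnd, Lypd3, Phlda2, Krt76, Hp, Hsd11b1, Cxcl5 and Syt13 against the own vector also ended. With array spreads scaled to be equal, those of Lsr, 1700012B09Rik, Prnd, Kctd12b, Prl2c5, Plscr2, Il11, Phlda2, Lypd3, Procr, Ddah2, Ddit4, Ugt1a6b, Xlr4b and Syt13 ended. The brightest probe stood for each gene, and another probe, above background on both CDH1 arrays, gave smaller changes for some genes named here. The other probe of Emilin2 gave -1.86 against the own and -0.07 against the second vector, that of C3 0.09 and 0.11, and that of Syt13 -0.10 and 0.06. Further probes gave 0.92 and 0.53 for Id2, 0.29 and 0.06 for Phlda2 and 0.07 and 0.09 for Ugt1a6b, and these 3 were not above background on either own vector array.

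The next question was whether adhesion genes moved with E-cadherin. Among 15 tested cadherins and relatives, 3 rose and 2 fell against the own vector, beside 7.74% and 6.82% of all genes, and the list median was -0.08 (0.01 over all genes). Besides Cdh1, the mesenchymal cadherin Cdh11 rose by 0.41 and the giant protocadherin Fat1 by 0.47, while Celsr1, a planar polarity cadherin, fell by 1.16 (adjusted p = 7.4e-06) and Pcdh7 by 0.49. Of these 5, Cdh1 was the member called against both vector lines; Celsr1 missed the threshold against the second (-0.38, adjusted p = 0.0649). The mean over the probes of Cdh11 was -0.06, so its rise rests on 1 probe. N-cadherin (Cdh2) did not reach background level on both arrays in any of the groups and was not tested.

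The partners of the E-cadherin tail moved little. Of 25 catenins and adherens junction genes 4 rose and 1 fell (median 0.01), beside 7.74% and 6.82% of all genes. Ajuba, a LIM protein of junctions and an inhibitor of Hippo kinases, was called against both lines (0.41 and 0.52). Beta-catenin, Ctnnb1, fell by 0.40 (adjusted p = 0.00851), from 0.70 and 0.62 in the own vector to 0.22 and 0.29 in CDH1. The second vector lay between at 0.50 and 0.43, and the difference from it was -0.21 (adjusted p = 0.291). Alpha-catenin Ctnna1 (-0.13, adjusted p = 0.371), p120-catenin Ctnnd1 (0.16, adjusted p = 0.344) and plakoglobin Jup (-0.19, adjusted p = 0.144) were not called, and Ctnnd1 and Jup were below background on both own vector arrays. Among 23 Wnt and beta-catenin response genes 4 rose and 2 fell (median -0.02). Apcdd1, a Wnt inhibitor induced by the pathway, was called against both lines (0.74 and 0.56), and its other probe gave -0.02 and -0.04. Sox9 (0.56), Tnfrsf19 (0.73) and Myc (-0.31) were called against the own vector and stood at -0.12, 0.08 and -0.02 against the second. Ccnd1, a much used target of the pathway, was not called against either (-0.02 and 0.04).

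Epithelial genes gave few calls. Of 43 tested, 5 rose and 2 fell against the own vector, close to the 7.74% and 6.82% of all genes, and the median was 0.00. With processed signals the median was 0.28, beside 0.06 over all genes, and without repeat A of the own vector 3 rose. Those called against both lines were Perp, Lsr and Klf5, a transcription factor of proliferating epithelia (0.32 and 0.32), as rises and the receptor gene Erbb3 as a fall (-0.46 and -0.59). The keratin gene Krt8 fell by 0.55 and was at -0.23 against the second vector, where 1 array had a value (adjusted p = 0.459). Its partner Krt18 (-0.24, adjusted p = 0.0723) and the adhesion molecule Epcam were not called. Epcam stood at -2.86 and -2.99 in CDH1 against -2.69 and -2.28 in the own vector, below it on both arrays (difference -0.44, adjusted p = 0.104). Cd24a, a surface sialoglycoprotein, rose by 0.86 against the own vector and was at -0.10 against the second.

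Junction lists gave the same few names. Of 31 tight junction genes 3 rose and 1 fell, beside 7.74% and 6.82% of all genes. Lsr and the polarity kinase Prkcz (0.54 and 0.39) were called against both lines. Cgnl1, which encodes paracingulin, was called in opposite directions, at -0.31 against the own vector and 0.57 against the second, with ratios of 0.33 and 0.34 in CDH1, 0.62 and 0.67 in the own vector and -0.25 and -0.21 in the second. Of 11 desmosome genes 3 rose and 2 fell, and Perp and the plakophilin gene Pkp2 (0.48 and 0.39) were called against both. Pkp3 rose by 0.81 against the own vector and was at 0.34 against the second (adjusted p = 0.111). Without either CDH1 repeat 0 tight junction genes stayed called against both lines.

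Among 15 repressors of Cdh1 transcription 1 rose, the corepressor Ctbp1 (0.45, and 0.01 against the second vector), and 0 fell, beside 7.74% and 6.82% of all genes. The list had 0 calls against the second vector. Zeb2 gave 0.53 and 0.60 in CDH1 and 0.80 and 0.75 in the own vector (-0.21, adjusted p = 0.0813). Zeb1 (-0.41, adjusted p = 0.275), Snai1 (-0.12, adjusted p = 0.439), Snai2 (-0.41, SE 0.426, adjusted p = 0.631) and Twist1 (-0.31, adjusted p = 0.454) were not called. The SE of Snai2 was wide beside that of most genes named here, so its level was poorly measured.

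YAP and TAZ response genes gave 6 rises and 2 falls of 21, beside 7.74% and 6.82% of all genes. Against the second vector they gave 5 rises and 1 fall, beside 1.3% and 1.21%. Called against both were Ankrd1, a cardiac ankyrin repeat gene much used as a YAP readout (0.49 and 0.74), Wwc1, the Hippo regulator Kibra (0.60 and 0.75), Ajuba, and as a fall Gadd45a (-0.81 and -0.74), a growth arrest gene. Ankrd1 stood at 0.37 and 0.42 in CDH1, above -0.06 and -0.13 in the own vector and -0.27 and -0.42 in the second. The classical targets Ccn1 (0.03, adjusted p = 0.903) and Ccn2 (0.47, adjusted p = 0.0667) were not called. The 6 rises were 3 without repeat B of the own vector, 3 without repeat B of CDH1 and 10 under median centring.

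**Figure D3:**
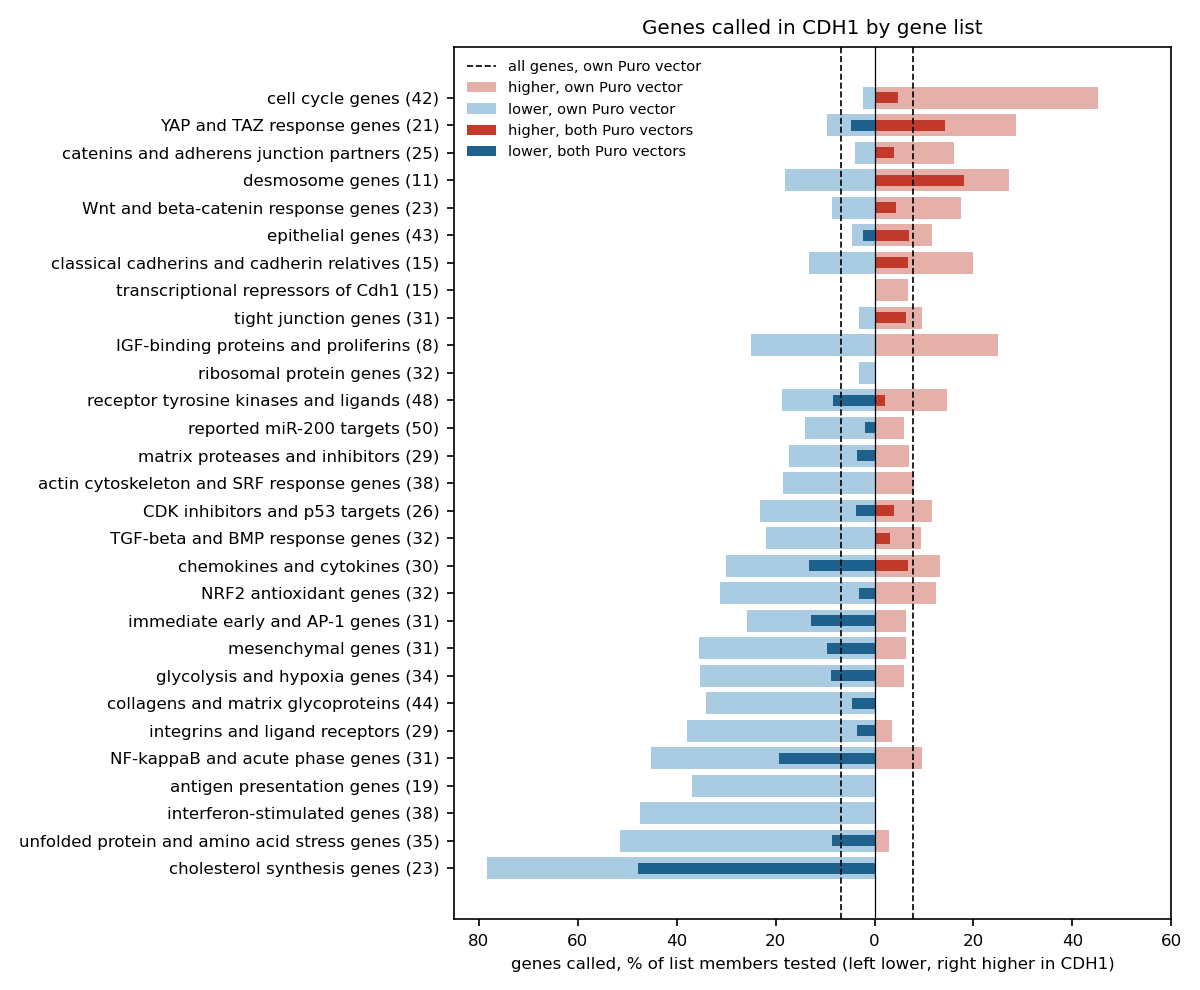
Share of the tested members of each gene list called lower (left) or higher (right) in CDH1, in percent (x axis), with the number tested in brackets; pale bars are calls against the own Puro vector, dark bars calls in the same direction against both Puro vectors, and dashed lines the share of all genes called against the own vector (6.82% lower, 7.74% higher). Cholesterol synthesis genes have the longest bar for falls and the longest dark bar (11 of 23 genes).

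Cholesterol synthesis was the list with the most calls against both vector lines. Cells make sterols by the mevalonate pathway, whose enzymes are switched on together by the SREBP factors when membrane sterol is low. Of 23 tested members 18 fell and 0 rose against the own vector, beside 6.82% of all genes that fell, with a median of -0.46 (0.01 over all genes). Against the second vector 11 fell and 1 rose, beside 1.21% and 1.3% of all genes, with a median of -0.35 (0.00 over all genes). The same 11 fell against both, beside 0.795% of all genes. The list had been looked at in earlier results of these data.

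The promoters of members of this list are shown because SREBP factors bind a sterol element there, usually beside a CCAAT box bound by NF-Y. RefSeq promoter windows of 300 bases, mostly upstream of the gene's start (build GRCm38.p6), were matched by symbol for 19 of the 23 listed genes; Fdps, Fdft1, Sqle and Stard4 had no entry. The letters TCACNCCA, the core of the sterol element, were searched on both strands and found in 3 of the 19 genes, Hmgcs1, Srebf2 and Msmo1, and in 4.97% of all 27025 symbols. CCAAT was found on either strand in 18 of the 19 and in 41.1% of all symbols. Capitals mark both motifs, which do not overlap, and CCAAT reads ATTGG where it lies on the other strand.
Hmgcs1 promoter, chr13:119690101-119690400, plus strand: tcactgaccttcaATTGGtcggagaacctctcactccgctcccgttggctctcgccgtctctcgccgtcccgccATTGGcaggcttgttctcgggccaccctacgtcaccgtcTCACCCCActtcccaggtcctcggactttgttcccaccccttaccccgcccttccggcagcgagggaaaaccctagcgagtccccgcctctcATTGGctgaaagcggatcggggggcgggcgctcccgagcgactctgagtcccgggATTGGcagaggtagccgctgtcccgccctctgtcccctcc
Srebf2 promoter, chr15:82147019-82147318, plus strand: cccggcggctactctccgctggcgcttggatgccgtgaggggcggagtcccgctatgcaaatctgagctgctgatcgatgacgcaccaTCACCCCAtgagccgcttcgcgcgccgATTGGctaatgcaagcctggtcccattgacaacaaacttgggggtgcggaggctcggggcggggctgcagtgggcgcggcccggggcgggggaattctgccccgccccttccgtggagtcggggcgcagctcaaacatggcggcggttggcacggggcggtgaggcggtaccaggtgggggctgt
Msmo1 promoter, chr8:64733529-64733828, minus strand: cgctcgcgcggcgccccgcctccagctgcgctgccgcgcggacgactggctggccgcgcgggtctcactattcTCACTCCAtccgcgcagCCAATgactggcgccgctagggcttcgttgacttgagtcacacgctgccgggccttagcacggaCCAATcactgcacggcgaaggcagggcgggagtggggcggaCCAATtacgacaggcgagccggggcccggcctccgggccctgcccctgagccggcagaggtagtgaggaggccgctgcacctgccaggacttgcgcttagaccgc
The sterol letters start at base 114 of the Hmgcs1 window, base 89 of Srebf2 and base 74 of Msmo1. A match is a description of the letters, not a measured site.

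All 3 of these genes fell against both vector lines. Hmgcs1, which makes HMG-CoA at the head of the pathway, gave -1.60 and -1.60 in CDH1, -0.62 and -0.54 in the own vector and -0.39 and -0.62 in the second. It fell by 1.02 (SE 0.0854, adjusted p = 7.4e-06) and by 1.10 (adjusted p = 5.2e-05), so that the size was alike against either line. The call of Hmgcs1 against the second vector ended in the sample channel alone (-0.57, adjusted p = 0.446). It also ended with array spreads scaled (-1.38, adjusted p = 0.0526). Srebf2, the transcription factor gene itself, gave -1.68 and -1.67 in CDH1, -0.47 and -0.57 in the own vector and -0.91 and -0.98 in the second, falling by 1.16 (adjusted p = 6.04e-07) and 0.73 (adjusted p = 0.000148). Msmo1, a sterol methyl oxidase late in the pathway, fell by 0.46 and 0.65.

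Enzymes of early and late steps of the pathway were among the falls. Sqle, the squalene epoxidase, fell by 1.18 (adjusted p = 6.04e-07), from 0.61 and 0.79 to -0.48 and -0.50, and by 0.70 against the second vector at 0.20 and 0.22. Fdps, which makes farnesyl pyrophosphate, fell by 0.97 and 0.58 (-0.14 and -0.37 on another probe). Idi1, an isomerase of the isoprene units, fell by 0.49 and 0.86, and its second vector ratios of 0.70 and 0.58 lay above those of the own vector. Another Idi1 probe gave -0.13 and -0.18, and other probes of Srebf2 gave -0.38 and -0.22 and, not above background in either vector line, 0.05 and 0.13. The other members called lower against both were Dhcr7, Pmvk, Tm7sf2, Fdft1 and Hsd17b7. Insig1, Insig2, Srebf1, Nsdhl, Mvd, Sc5d and Stard4 fell against the own vector alone, and for Insig1 the second vector (-1.24 and -1.25) lay next to CDH1 (-1.34 and -1.32). Ebp rose by 0.37 against the second vector and was not called against its own (0.11, adjusted p = 0.428). The listed genes Acat2, Cyp51, Lss and Mvk were not called against either line. The 18 falls were 10 under median centring, where the list median was -0.32 beside 0.11 over all genes, 11 with marked spots kept and 7 with array spreads scaled to be equal. The 11 falls against both were 4 under median centring, 6 with marked spots kept, 1 with spreads scaled and 7 in the sample channel alone, and leaving out single arrays gave 6 to 10, with 6 without repeat B of CDH1 and 7 without either array of the second vector.

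**Figure D4:**
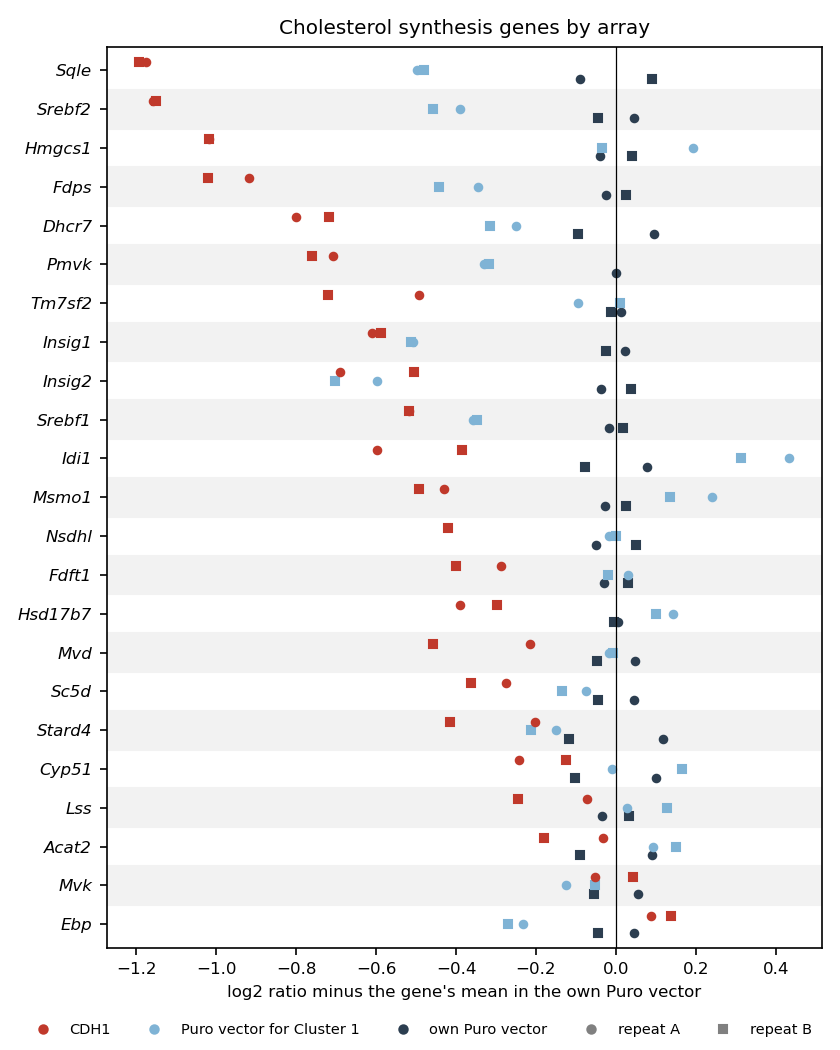
Log2 ratio of each tested cholesterol synthesis gene on each array, minus the mean of the gene in the own Puro vector (x axis), for CDH1, the own Puro vector and the Puro vector for Cluster 1; circles are repeats A and squares repeats B. In Hmgcs1 both vector lines lie together and CDH1 about 1.02 below the own vector, while for Insig1 and Insig2 the second vector lies with CDH1.

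Interferon-stimulated genes fell against the own vector alone. Of 38 tested 18 fell and 0 rose (median -0.40), beside 6.82% and 7.74% of all genes. Against the second vector 0 fell and 2 rose, Isg20 (0.51) and Bst2 (0.42), beside 1.21% and 1.3% of all genes. The list median there was 0.03. No member was called the same way against both. Ifi204, a DNA sensor, gave -1.06 and -1.14 in CDH1, -0.05 and -0.07 in the own vector and -0.86 and -0.85 in the second; it fell by 1.04 (adjusted p = 1.43e-06) and was at -0.24 (adjusted p = 0.103), with -0.33 and -0.29 on another probe. Rtp4, a receptor chaperone, fell by 0.95 and was at 0.18 against the second vector (adjusted p = 0.548). Isg15, the ubiquitin-like modifier, fell by 0.51 and was at 0.13. Among 19 antigen presentation genes 7 fell against the own vector and 0 were called against the second. The immunoproteasome subunits Psmb8 (-1.50, adjusted p = 1.04e-07) and Psmb9 (-1.01) had the largest falls, and stood at -0.15, over 1 array, and -0.14 against the second vector. H2-K1, a class I heavy chain, fell by 0.64 (-0.06 against the second), and class I genes share much sequence, so its probe may see relatives. The interferon count was 9 with marked spots kept.

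NF-kappaB and acute phase genes gave 14 falls and 3 rises of 31 against the own vector (median -0.33), beside 6.82% and 7.74% of all genes. Against the second they gave 6 falls and 1 rise (median -0.11), beside 1.21% and 1.3%. The 6 falls were called against both: Cebpd, C3, the NF-kappaB cofactor Bcl3 (-0.86 and -0.61), the factor Cebpb (-0.82 and -0.42), the cytokine inhibitor Socs3 (-0.82 and -0.33) and ceruloplasmin Cp (-0.70 and -0.54). Bcl3 stood at 0.20 and 0.10 in CDH1, 1.03 and 0.98 in the own vector and 0.74 and 0.79 in the second. Lcn2, the siderophore-binding lipocalin, fell by 1.00 and was at -0.30 against the second vector (adjusted p = 0.486), and the serum amyloid gene Saa3 fell by 0.94 (adjusted p = 0.0458) and was at 0.00. The 14 falls were 9 without repeat B of CDH1 and 7 with marked spots kept.

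Secreted signals split into rises and falls. Of 30 chemokines and cytokines 4 rose and 9 fell against the own vector, beside 7.74% and 6.82% of all genes. Against both lines 2 rose and 4 fell, beside 0.763% and 0.795%. The rises were Il34, a ligand of the CSF1 receptor (0.71 and 0.52), and Tslp, an epithelial alarmin (1.03 and 0.42). Il34 stood at 1.71 and 1.84 in CDH1, 1.13 and 1.01 in the own vector and 1.29 and 1.23 in the second. The falls were Ccl2, Cxcl5, osteopontin Spp1 (-1.35 and -0.54) and the alarmin Il33 (-0.97 and -0.61). Ccl7 fell by 1.47 and Cxcl1 by 1.23, and they stood at -0.29 and -0.49 against the second vector (adjusted p = 0.619 and 0.194). Tslp went the other way in the scanner software's processed signals (-0.34, adjusted p = 0.114). Leaving out repeat B of CDH1 left 0 rises and 1 fall called against both.

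**Figure D5:**
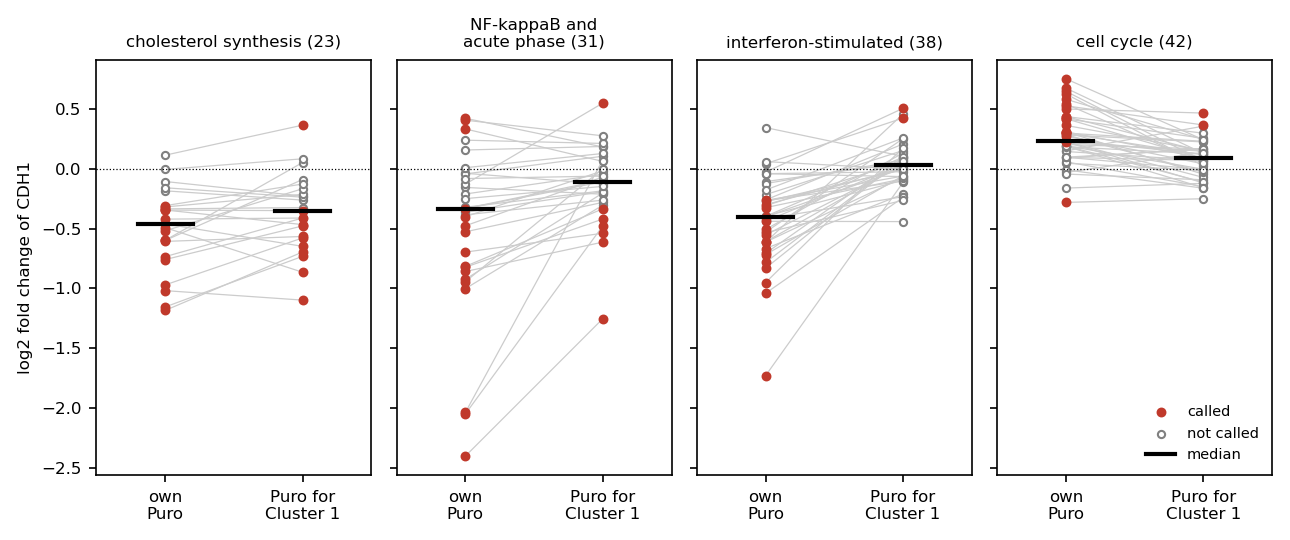
Log2 fold change of CDH1 (y axis) against the own Puro vector and against the Puro vector for Cluster 1 for the members of 4 gene lists; each point is a gene, filled where called, grey lines join a gene and black bars are medians. The median of cholesterol synthesis genes was -0.46 and -0.35, and that of interferon-stimulated genes -0.40 and 0.03.

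Mesenchymal genes are the counterpart of epithelial genes in the loss of E-cadherin. Of 31 tested 11 fell and 2 rose against the own vector (median -0.43), beside 6.82% and 7.74% of all genes. Against both lines 3 fell, beside 0.795% of all genes. They were Spp1, the growth factor receptor Pdgfra (-1.07 and -0.58) and the fibrillar collagen Col5a1 (-1.05 and -0.62). Pdgfra stood at -1.49 and -1.66 in CDH1, -0.45 and -0.56 in the own vector and -0.92 and -1.07 in the second, and its other probe gave changes of -0.25 and -0.18. Fibronectin Fn1 fell by 1.13 (adjusted p = 1.32e-05), from -1.45 and -1.40 to -2.53 and -2.57, and differed by -0.22 from the second vector at -2.37 and -2.30 (adjusted p = 0.346). Another Fn1 probe gave -0.06 and 0.16. Sparc, a matricellular protein, fell by 0.99 and was at -0.00 against the second vector (adjusted p = 0.996), while its other probe gave -0.92 and -0.52. Vimentin, Vim, was not called against either line (-0.30, adjusted p = 0.186, and -0.42, adjusted p = 0.154). Col5a1 and Spp1 also belong to the collagen and matrix list, which gave 15 falls and 0 rises of 44 (median -0.35) and 2 falls against both. Of 29 integrins and receptors for matrix 11 fell and 1 rose, and Vcam1, a ligand for leukocyte integrins, was called against both (-1.34 and -0.55). The 11 mesenchymal falls were 7 without repeat A of the own vector or repeat B of CDH1. They ran from 3 with array spreads scaled to 19 with the 8 Cy5 arrays fitted alone, and leaving out repeat B of CDH1 left 0 falls called against both.

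Cell cycle genes were the list with most rises. Of 42 tested 19 rose and 1 fell (Bub1b, -0.28) against the own vector, beside 7.74% and 6.82% of all genes, with a median of 0.23. Against the second vector 2 rose, beside 1.3% of all genes, and the median was 0.09. These were the centromere histone Cenpa (0.50 and 0.47) and the ribonucleotide reductase subunit Rrm2 (0.53 and 0.37). Tyms, thymidylate synthase, gave 1.29 and 1.29 in CDH1, 0.64 and 0.59 in the own vector and 1.17 and 1.14 in the second; it rose by 0.68 (adjusted p = 3.32e-05) and was at 0.13 (adjusted p = 0.39), with 0.03 and 0.12 on another probe. Cyclin E2, Ccne2, rose by 0.65 and was at 0.07. The helicase subunit Mcm2 rose by 0.75 (adjusted p = 0.0217) with own vector arrays at -0.99 and -0.11, a spread wider than most. Mki67, a proliferation marker, was not called (0.23, adjusted p = 0.194). The 19 rises were 10 without repeat B of either the own vector or CDH1 and 30 under median centring, where the list median was 0.47.

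Stress and metabolic lists fell mainly against the own vector. Of 35 genes of the unfolded protein and amino acid stress responses 18 fell and 1 rose (median -0.37), beside 6.82% and 7.74% of all genes. Against both 3 fell, beside 0.795% of all genes: Ddit4, Cebpb and the ER growth factor Manf (-0.42 and -0.39). The pseudokinase Trib3 fell by 0.90 and Creld2 by 0.90, and they were at -0.14 and -0.22 against the second vector. The chaperone Hspa5 fell by 0.48 (adjusted p = 0.0116) and was at -0.19. The 18 falls were 11 without either CDH1 repeat or without repeat B of the own vector. Of 34 glycolysis and hypoxia genes 12 fell and 2 rose (median -0.26), and Vegfa (-0.83 and -0.34), the kinase Pdk1 (-0.47 and -0.38) and the mitophagy receptor Bnip3l (-0.45 and -0.37) fell against both. Aldoc, an aldolase, fell by 1.47 and was at -0.39 (adjusted p = 0.199). None of the 3 stayed called against both without repeat B of CDH1 or without either array of the second vector.

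Of 31 immediate early and AP-1 genes 8 fell and 2 rose, beside 6.82% and 7.74% of all genes. Against both lines 4 fell, beside 0.795% of all genes. They were the zinc finger factor Egr2 (-0.98 and -0.44), the ERK phosphatase Dusp6 (-0.64 and -0.45), Ier5 (-0.54 and -0.36) and Phlda1 (-0.54 and -0.39). Dusp6 stood at 0.13 and 0.21 in CDH1, below 0.78 and 0.83 in the own vector and 0.61 and 0.63 in the second. These 4 numbered 0 without repeat A of CDH1 and 1 without repeat B. Among 48 receptor tyrosine kinases and ligands 7 rose and 9 fell, and the falls were 5 without repeat B of the own vector, without repeat B of CDH1 and under median centring. Hbegf, a ligand of the EGF receptor, rose against both (0.40 and 0.71), and Fgf7, Pdgfra, Igf2 (-0.59 and -1.10) and Erbb3 fell. The sample channel alone, without the reference, turned Igf2 to 2.70 against the second vector. Of 32 TGF-beta and BMP response genes 3 rose, close to the 7.74% of all genes, and 7 fell. Id2 rose against both. Id3 rose by 0.56 and Id4 by 0.94 against the own vector alone (0.25 and -0.11 against the second), and Id1 was not called (0.24, adjusted p = 0.2). The other probe of Id4, not above background in the own vector, gave -0.03 and -0.23. The 7 falls were 3 without repeat A of the own vector and 4 without either CDH1 repeat.

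The effect of E-cadherin was set against that of miRNA Cluster 1, and of Clusters 1+2 together, each against its own vector cells, by testing the difference of the effects. The CDH1 effect differed from the Cluster 1 effect in 3225 of 18859 genes (17.1%) and from the Clusters 1+2 effect in 3357 of 18844 (17.8%). Cluster 1 itself changed 8.31% of genes and Clusters 1+2 changed 25%. The CDH1 cells differed from their own vector in 14.6% of genes. Genes called in CDH1 and in Cluster 1 went the same way in 105 cases (3.82% of the CDH1 calls, 6.70% of the Cluster 1 calls). They went opposite ways in 712 (25.9% and 45.5%). With Clusters 1+2 they went the same way in 923 cases (33.6% of the CDH1 calls, 19.6% of the others) and opposite ways in 479 (17.4% and 10.2%). These comparisons share no arrays, but slides differ for both and dye differs for Clusters 1+2. For Cluster 1 the treated and vector cells had the reverse order of slide positions, and the part of position was not tested.

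Epithelial genes differed more often from the Clusters 1+2 effect than from the Cluster 1 effect. In the test of the difference, 26 of 43 were lower and 2 higher in the CDH1 effect than in the Clusters 1+2 effect. Of all genes 17.8% differed. The Clusters 1+2 effect itself raised 30 of the 43, beside 2305 of all 18853 genes. From the Cluster 1 effect 8 were lower and 1 higher, beside 1660 lower and 1565 higher of all 18859 genes. Of the 8 simple epithelial markers 5 were lower and 0 higher than in the Cluster 1 effect. For Epcam the difference was -1.84 (adjusted p = 0.000168) from Cluster 1 and -3.67 (adjusted p = 4.28e-07) from Clusters 1+2. Dsp, the desmosomal plaque protein, was not called in CDH1 (0.23, adjusted p = 0.143) and differed by -2.95 from Clusters 1+2, with neither own vector array above background. Perp, Lsr and Shtn1, the 3 largest rises, did not pass for a difference from Cluster 1, at 0.26 (adjusted p = 0.0994), -0.12 (SE 0.171, adjusted p = 0.735) and 0.23 (adjusted p = 0.185), while against Clusters 1+2 they were lower by test (-0.69, -1.61 and -0.89). That test took each effect against its own vector cells. Against the second vector line, the control of Cluster 1, the 3 genes rose by 0.97, 0.74 and 1.06 in CDH1. In Cluster 1 they rose by 1.94, 2.22 and 1.70 against the same line. Zeb2 was higher by 1.89 (adjusted p = 1.2e-07) than in Clusters 1+2.

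Cholesterol genes went opposite ways. Of 23, 18 were lower in the CDH1 effect than in the Cluster 1 effect, beside 1660 of all 18859 genes. Lower than in the Clusters 1+2 effect were 23, beside 1567 of all 18844 genes. Clusters 1+2 raised 22 of the 23, beside 2305 of all 18853 genes. For Hmgcs1 the differences were -1.43 (adjusted p = 6.93e-06) and -2.91 (adjusted p = 1.37e-08). Id2 differed the other way, by 2.05 and 3.74, and Il11 by 2.37 and 2.95. Id2 rose by 1.55 in CDH1 and gave -0.51 in Cluster 1 and -2.19 in Clusters 1+2. Il11 rose by 1.11 in CDH1 (0.13 against the second vector) and gave -1.26 in Cluster 1 and -1.84 in Clusters 1+2. C3 differed by -3.74 and -3.26, from a CDH1 change of -2.05 against the own vector that was -0.48 against the second. Another C3 probe gave CDH1 changes of 0.09 and 0.11 against the own and second vector. The difference from Clusters 1+2 in count of genes fell to 107 with array spreads scaled.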

How the data were processed

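RNA of 16 samples was hybridised with a common reference on Agilent 2-colour arrays of design 014868, and the scanner files hold spot intensity values that the authors deposited, extracted with Agilent Feature Extraction 9.5.3.1 per the file headers, with probe positions on build mm7. The value table that the authors deposited holds a linear ratio of sample over reference, which matched the processed signals of 16 of 16 arrays (largest log10 difference 8.06e-08), with column medians of 0.903 to 1.17, and it was not tested.
Marked spots were set aside, background was corrected by normexp with an offset of 50, and each array was normalised by loess in limma 3.58.1 (R 4.3.3). Spots of a probe were averaged. Of 41174 probes 26918 were well above background on both arrays of at least 1 group, and the brightest probe stood for each of 18885 genes, of which 2713 had a missing value on some array. One mean for each of the 8 groups was fitted over 16 arrays, with two-sided Benjamini-Hochberg adjusted p-values. An exact permutation test of 2 against 2 cannot give a p below 0.333. Alternatives changed the background offset (10), marked spots, normalisation, filter, probe rule, arrays fitted and the replicate block. The correlation of deviations of same-lettered CDH1 and vector repeats was 0.0111, so repeats were not paired. Named genes were the 12 largest rises and 12 largest falls called against the own vector, with both CDH1 arrays beyond both vector arrays and signal above background in the higher group, the 10 largest rises and falls called against both lines by the smaller change, and members of gene lists. The members and lists were chosen with earlier results of these data known. Some members of the cholesterol synthesis list were left out of it and are not reported here.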

Additional observations from a re-analysis of the deposited data

How the results depend on the processing

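Results rest on 2 arrays a group, slides or slide positions that cannot be told apart from the groups, and a control array with few probes above background, and the cause of each change below was not tested. Against the own vector, 1256 genes were called with marked spots kept and 713 with array spreads scaled, beside 2748, and 1538 to 2064 on leaving out 1 array. Against the second vector the counts were 38 with marked spots kept, 2125 in the sample channel alone, 261 with no filter and 300 with the mean over probes, beside 473, and 127 to 198 on leaving out 1 array. Calls against both were 29 with marked spots kept, 63 with spreads scaled, 733 in the sample channel alone, 164 with no filter, 497 with the strict filter and 176 with the mean over probes, beside 294, and 79 to 238 on leaving out 1 array. Median centring made 80.2% of calls against the second vector and 84.9% of those against both rises. The difference from Cluster 1 gave 1162 with marked spots kept and 1662 with spreads scaled, beside 3225 (2337 to 2786 on leaving out 1 array), and that from Clusters 1+2 gave 1651, 107, 2215 with processed signals and 1936 in the sample channel alone, beside 3357 (2594 to 3017). Cdh1 was no longer called with marked spots kept (0.56, adjusted p = 0.436) or spreads scaled (0.97, adjusted p = 0.716), and ran from 0.51 to 0.72 on leaving out 1 array; it was 1.20 with a background offset of 10, 2.44 with processed signals and 1.00 in the sample channel alone. With the replicate block the counts were 2694, 328, 208, 3300 and 3354, and Cdh1 kept its value of 0.61; the repeats share only a letter.
Directions turned in these cases. With spreads scaled, values against the second vector became -0.62 for Apcdd1, 0.17 for Bnip3l, 0.0653 for C3, -0.0198 for Cenpa, 0.21 for Col5a1, 0.12 for Egr2, 0.18 for Emilin2, 0.76 for Gstm1, 0.89 for Adam8, -0.14 for Il34, -0.37 for Lypd3, 0.0134 for Socs3, -0.85 for Tslp and 0.34 for Vegfa. In the sample channel alone they became 0.75 for Cebpb, 0.0759 for Dusp6, -2.09 for Hp, -1.10 for Hsd11b1, 2.70 for Igf2, 0.58 for Syt13 and 0.43 for Xlr4b, and against the own vector 0.0468 for Erbb3, 0.0872 for Hspa5 and 0.99 for Xlr4b. With marked spots kept Pkp2 gave -0.20 and -0.0609 against the own and second vector, the mean over probes gave -0.0631 for Cdh11 (own vector) and 0.0651 for Gstm1 (second), and processed signals gave -0.34 for Tslp (own vector).
Of 22 list counts of 5 or more against the own vector, 18 were smaller by over 1.5 times with marked spots kept, 20 with spreads scaled, 8 under median centring (2 larger) and 4 in the sample channel alone (1 larger). The numbers that shrank so were 10 and 2 without repeats B and A of CDH1, and 6 and 5 without repeats A and B of the own vector. Smaller counts moved too. Without repeat B of CDH1 rises numbered 0 for cadherins (3 before) and NF-kappaB genes (3 before) and 2 for catenins (4 before), without repeat A of the own vector 1 for NF-kappaB genes, without repeat B of the own vector 0 for glycolysis genes (2 before), and without repeat A of CDH1 also 0 for glycolysis genes and 2 for NRF2 genes (4 before).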

Other observations

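Some gene groups were not described above. Of all genes 7.74% rose and 6.82% fell against the own vector. The rises of the actin and SRF genes and of the reported miR-200 targets were close to that share. Of 32 NRF2 antioxidant genes 4 rose and 10 fell against the own vector, and the glutathione transferase Gstm1 fell against both lines (-1.42 and -0.55; -0.16 and 0.20 on another probe). Of 29 matrix proteases and inhibitors 2 rose and 5 fell, and the sheddase Adam8 fell against both; the falls were 2 without repeat B of CDH1 and 3 without repeat A of the own vector. The stromelysin Mmp3 was not called against the own vector (-0.23) and fell by 0.87 against the second. Of 38 actin and SRF genes 3 rose and 7 fell, and 0 were called against both; without repeat B of the own vector 1 rose and 4 fell, and falls were 4 without its repeat A and 1 without repeat B of CDH1. Of 26 CDK inhibitors and p53 targets 3 rose and 6 fell, and Perp and Gadd45a were called against both. Of 8 IGF-binding proteins and proliferins 2 rose and 2 fell, the falls being Igfbp6 and Igfbp7. Of 50 reported miR-200 targets 3 rose and 7 fell, with Vegfa the member called against both; without repeat A of the own vector 1 rose and 3 fell, without repeat B of CDH1 1 rose and 4 fell, and under median centring 10 rose and 3 fell. Of 32 ribosomal protein genes 0 rose and 1, Rpl8, fell.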
